A study of Homo sapiens with 12 samples.

Results

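Gene deserts are long stretches of a chromosome without a protein-coding gene. Here a gene desert was an interval of at least 1 Mb between the bodies of neighbouring RefSeq protein-coding genes (GRCh38) on chromosomes 1 to 22. Of 16397 intervals between neighbouring coding genes, 297 were at least 1 Mb long. The 7 of these in which neither region list touched a stretch of 500 kb or more were left out, and 6 of the 7 span a centromere. The remaining 290 deserts held 545 Mb, or 19.8% of the 2757 Mb of autosomal sequence that was kept. Their median length was 1.57 Mb, the shortest was 1.001 Mb and the longest 6.28 Mb. Of the deserts, 88 were at least 2 Mb long and 32 at least 3 Mb long. No values from the lists chose the members, apart from the rule on untouched stretches.

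The study mapped nucleolus-associated domains (NADs) in H9, an established line of human embryonic stem cells, by NAD-seq, which sequences the DNA that pellets with crosslinked, sonicated nucleoli beside DNA of whole cells. RSeT was the culture medium of the naive cells and mTeSR that of the primed cells, and no treatment was applied to either. The 12 libraries formed 4 groups of 3, since each state gave a nucleolar fraction and a whole-cell fraction. The deposited data analysed here are 1 list of NADs for each state, with 61750 regions for naive and 29994 for primed cells on chromosomes 1 to 22 and X, laid on a grid of 10 kb bins. A list holds only starts and ends, so every share below is 1 value per state, with no replicate error, no score and no known depth, and no test between the states was possible. Differences between the states cannot be told apart from differences in depth or calling between the lists. The lists hold no expression, so the labelled cell state was not checked against marker genes, and H9 is a single line.

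The nucleolus forms around the ribosomal RNA genes on the short arms of the acrocentric chromosomes, and much of the chromatin that packs against it is late-replicating, gene-poor and transcriptionally silent. Gene deserts often sit beside genes for developmental transcription factors and neuronal cell adhesion proteins, and some hold distant enhancers of those genes. Naive cells correspond to an earlier, preimplantation-like state and primed cells to a later, postimplantation-like state of pluripotency.

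A few sequences show what the deserts contain and what borders them. The smallest annotated genes inside deserts include microRNAs, short RNAs that repress messenger RNAs through the seed, bases 2 to 8. Of 109 annotated microRNA genes inside deserts, 79 had a hairpin in the RefSeq sequence table (GRCh38.p14). Of these 79, 25 lay in NADs of both lists, 15 of the naive list alone, 11 of the primed list alone and 28 of neither. Over all 109 genes, 35 lay in NADs of both lists and 39 in neither, against 392 and 445 of 1684 elsewhere on the autosomes. The miR-17-92 cluster, a proliferation-promoting polycistron carried by the host transcript MIR17HG, was among the 8 loci in the longest deserts that lay in NADs of both lists, which are printed here; the desert around it was nearly empty in the primed list. The desert SLITRK5-GPC5 (chr13:87679617-91398620, 3.72 Mb) was 44.9% in naive NADs and 0.807% in primed NADs. It held only 2 primed regions: a single bin in the lncRNA LINC01049 (chr13:90510001-90520000) and a region of 20 kb over the cluster (chr13:91340001-91360000). MIR17HG was 100% inside that primed region, and 66.4% of it lay in naive NADs. The 6 microRNA loci of the cluster share that primed region, so they are not separate cases among the 25. The mature products from the hairpins MIR17, MIR18A, MIR19A, MIR20A and MIR19B1 follow, 5′ to 3′, with the seed in capitals.
hsa-miR-17-5p: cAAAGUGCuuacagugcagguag
hsa-miR-17-3p: aCUGCAGUgaaggcacuuguag
hsa-miR-18a-5p: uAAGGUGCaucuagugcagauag
hsa-miR-18a-3p: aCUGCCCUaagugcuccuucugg
hsa-miR-19a-5p: aGUUUUGCauaguugcacuaca
hsa-miR-19a-3p: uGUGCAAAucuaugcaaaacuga
hsa-miR-20a-5p: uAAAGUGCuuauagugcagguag
hsa-miR-20a-3p: aCUGCAUUaugagcacuuaaag
hsa-miR-19b-1-5p: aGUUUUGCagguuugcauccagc
hsa-miR-19b-3p: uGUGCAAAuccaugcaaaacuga

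By seed, miR-17-5p and miR-20a-5p form one family (AAAGUGC), the 3p products of MIR19A and MIR19B1 another (GUGCAAA), and their 5p products a further one (GUUUUGC). The other microRNA loci chosen by length of desert lay in deserts of 4 Mb or more and in NADs of both lists. MIR4522 lies at chr17:27293910-27293996 in the desert KCNJ18-WSB1, MIR924 at chr18:39622123-39622175 in LOC105372073-PIK3C3, and MIR6130 at chr21:23079284-23079392 in NCAM2-MRPL39. Each of the 3 has a seed of its own.
hsa-miR-4522: uGACUCUGccuguaggccggu
hsa-miR-924: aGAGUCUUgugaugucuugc
hsa-miR-6130: uGAGGGAGuggauuguaug

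The next sequences are promoters at the edges of deserts with opposite patterns, chosen after the shares were known. Each is the 250 bases before an annotated start (RefSeq, GRCh38.p14), printed on the gene's own strand, with every CG dinucleotide in capitals; CG reads the same on both strands. AUTS2, a transcriptional regulator of neurodevelopment (chr7:69598225-69598474, plus strand), and GADD45G, a stress- and growth-arrest-inducible gene (chr9:89604762-89605011, plus strand), border deserts with a far higher primed than naive share. CDH7, a classical cadherin (chr18:65750002-65750251, plus strand), and DSEL, a dermatan sulfate epimerase-like gene (chr18:67516721-67516970, minus strand), border deserts with a far higher naive than primed share.
AUTS2: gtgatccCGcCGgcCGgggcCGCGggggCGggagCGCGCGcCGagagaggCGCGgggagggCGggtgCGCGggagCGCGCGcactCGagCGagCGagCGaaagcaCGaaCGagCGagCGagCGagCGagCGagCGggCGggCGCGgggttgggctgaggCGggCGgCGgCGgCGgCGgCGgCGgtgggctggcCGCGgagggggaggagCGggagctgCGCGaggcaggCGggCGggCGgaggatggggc
GADD45G: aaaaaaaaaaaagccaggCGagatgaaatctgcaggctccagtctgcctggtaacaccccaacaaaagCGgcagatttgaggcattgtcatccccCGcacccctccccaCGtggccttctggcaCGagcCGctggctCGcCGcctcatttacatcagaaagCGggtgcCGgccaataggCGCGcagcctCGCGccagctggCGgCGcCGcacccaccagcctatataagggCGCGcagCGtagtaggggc
CDH7: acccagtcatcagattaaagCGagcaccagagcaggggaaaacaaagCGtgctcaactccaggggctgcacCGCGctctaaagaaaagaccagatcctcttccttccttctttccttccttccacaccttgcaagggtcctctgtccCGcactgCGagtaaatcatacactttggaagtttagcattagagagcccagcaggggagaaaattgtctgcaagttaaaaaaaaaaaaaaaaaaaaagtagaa
DSEL: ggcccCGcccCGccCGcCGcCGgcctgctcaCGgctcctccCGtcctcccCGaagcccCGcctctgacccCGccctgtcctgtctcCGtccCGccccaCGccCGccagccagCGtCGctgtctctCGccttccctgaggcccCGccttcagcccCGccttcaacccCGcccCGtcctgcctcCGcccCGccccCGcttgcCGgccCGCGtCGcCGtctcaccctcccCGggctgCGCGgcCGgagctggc

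These windows hold 49 CG in AUTS2, 20 in GADD45G, 6 in CDH7 and 33 in DSEL. Only 3.20% of the promoter windows of coding genes in the table hold none. The AUTS2 start lay in NADs of both lists, that of GADD45G in the primed list alone, that of CDH7 in the naive list alone and that of DSEL in neither.

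The deserts were in NADs more often in the naive list and less often in the primed list than the other autosomal sequence. Of the desert sequence, 44.6% (243 Mb) lay in naive NADs and 33.1% (181 Mb) in primed NADs. Of the autosomal sequence outside deserts, 38.2% lay in naive and 46.3% in primed NADs. So the naive share was 6.37 points higher in deserts, and the primed share was lower by 13.2 points. Inside deserts the naive share exceeded the primed share by 11.5 points. This difference was 39.6 points with regions at most 50 kb apart merged, 4.15 points without single-bin regions and 4.89 points with chromosomes weighted equally, and it turned to -24.6 points in the 15 deserts left when all annotated genes bounded them, 12 of which hold a centromere. Sequence in NADs of the naive list alone made up 25.4% of the deserts and 16.9% of the rest; sequence in NADs of the primed list alone made up 13.97% and 24.99%. A further 19.2% of desert sequence was in both lists and 41.4% in neither, beside 21.3% and 36.8% outside deserts. Of the desert sequence in primed NADs, 57.8% was also in naive NADs, and of that in naive NADs 42.96% was also in primed NADs. Outside deserts these overlaps were 46.1% of the primed list and 55.8% of the naive list.

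The spread over deserts was narrow in the naive list and wide in the primed list. The naive share ran from 18.7% to 91.4%, with a median of 42.5% and quartiles of 33.0% and 52.1%. The primed share ran from 0% to 100%, with a median of 11.2% and quartiles of 1.81% and 63.9%. The SD over the 290 deserts was 13.7 points in the naive list and 36.8 points in the primed list; it describes deserts, not replicates. Most deserts were thus either nearly free of primed NADs or mostly within them, while naive NADs were scattered through every desert: 23 deserts held no primed region and none lacked a naive region. The naive share was the higher one in 198 of 290 deserts (68.3%). Of 2746 non-overlapping autosomal windows of 1 Mb, the background used here, the naive share was the higher one in 48.8%. The median difference over deserts was 23.03 points, naive above primed.

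Against that background the deserts were spread differently over the range of primed shares. A primed share under 5% was found in 110 deserts (37.9%) and in 22.6% of windows. A primed share from 20% to 80% was found in 64 deserts (22.1%) and in 35.7% of windows. A primed share of 95% or more was found in 33 deserts (11.4%), against 14.2% of windows, so full coverage was not more frequent in deserts. In the naive list 282 deserts (97.2%) lay from 20% to 80%, close to the 95.3% of windows. A naive share under 20% was found in 1 desert, against 3.53% of windows, and a naive share of 80% or more in 7 deserts (2.41%), against 1.24% of windows. Windows have a fixed length of 1 Mb and can overlap deserts; of the 1959 windows wholly outside deserts, the naive share was the higher one in 42.0% and the primed share was under 5% in 17.2%.

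**Figure D1:**
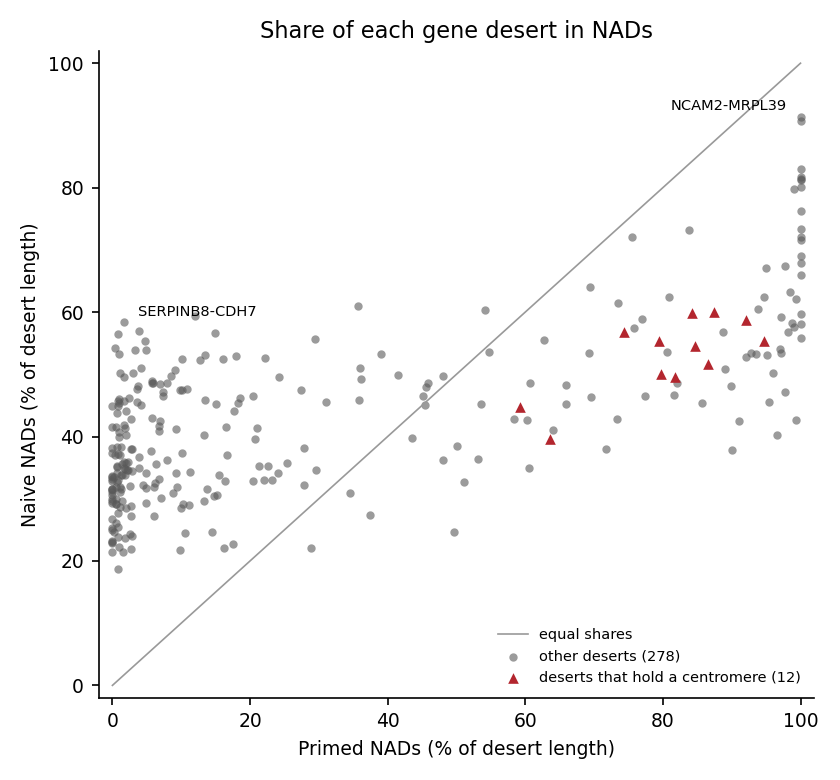
Naive share (vertical axis, % of desert length in naive NADs) against primed share (horizontal axis, % of desert length in primed NADs) of each of the 290 deserts; triangles mark the 12 that hold a centromere and the line marks equal shares. Many points lie near 0% or 100% primed, while naive shares stay between 18.7% and 91.4%.

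Deserts that held much primed NAD sequence also held more naive NAD sequence. Over the 290 deserts the 2 shares had a Spearman correlation of 0.646, given as a description because neighbouring deserts share a chromosome and a list. In the 110 deserts with a primed share under 5%, naive NADs covered 36.3% of the sequence, from 18.7% to 58.4% per desert. In the 33 deserts with a primed share of 95% or more they covered 67.0%, from 40.2% to 91.4% per desert. The number of naive regions was alike, 21.7 per Mb in the first set and 19.9 per Mb in the second, and the mean length of a region differed, 16.9 kb against 35.2 kb. The maps of 4 deserts show these patterns.

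**Figure D2:**
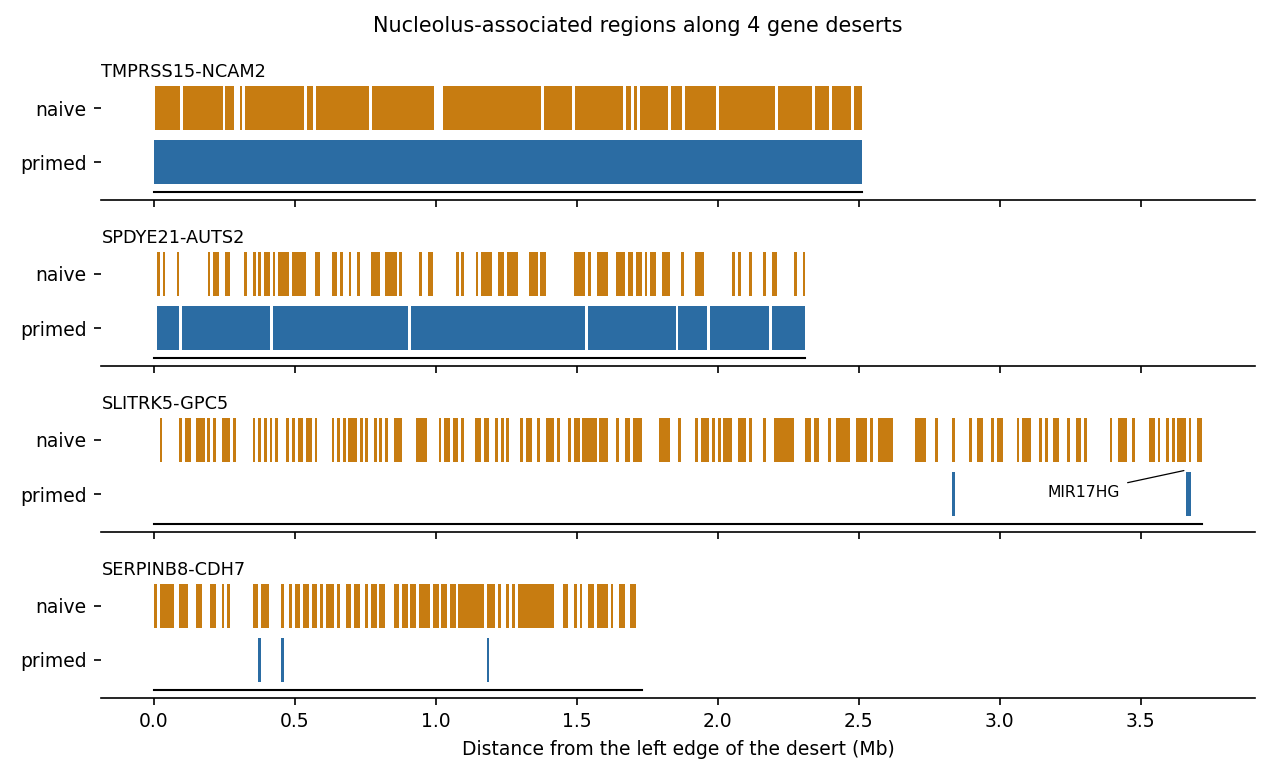
Regions of the naive (upper row) and primed (lower row) lists along 4 deserts, by distance from the left edge of the desert in Mb; the black line spans the desert. TMPRSS15-NCAM2 and SPDYE21-AUTS2 are 100% and 96.5% primed, SLITRK5-GPC5 and SERPINB8-CDH7 are 0.807% and 1.73% primed, and the naive regions are broken into many pieces in each.

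The regions themselves differed in kind. Wholly inside deserts there were 11570 naive regions with a mean length of 20.7 kb, 54.3% of them a single bin. There were 3883 such primed regions with a mean length of 32.1 kb, 59% of them a single bin. These values leave out 229 naive and 193 primed regions that cross an edge of a desert. The longest region wholly inside a desert was 520 kb in the naive list and 1360 kb in the primed list. Of the 139 naive regions of at least 100 kb inside deserts, 36 lay on chromosome 21, which holds 13.6 Mb of the 545 Mb of desert sequence. Of the 139, 5 overlapped no primed NAD. A long region is more easily touched, and the same count for shorter regions or for regions outside deserts is not given, so the 5 have no background. Primed regions could instead exceed a whole desert: 17 deserts lay entirely inside 1 primed region, and 12 primed regions held them. The longest of these regions (chr21:12960001-34380000, 21.4 Mb) held 4 deserts of chromosome 21: USP25-CXADR, TMPRSS15-NCAM2, NCAM2-MRPL39 and LOC124905050-HEMK2.

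The difference between deserts and the rest of the genome was present on most chromosomes. Chromosome 19 had no desert that was kept. On each of the other 21 autosomes the naive share of the deserts was above that of the rest of the chromosome, by 2.41 points (chromosome 6) to 12.6 points (chromosome 7), with a median of 6.53 points. The primed share of the deserts was below the rest on 19 of 21 chromosomes. The exceptions were chromosome 7, whose deserts were 49.4% primed against 33.6% of the rest, and chromosome 22, with 98.3% against 90.4%. On chromosome 2 the primed shares were 28.46% in deserts and 28.50% in the rest. Chromosome 13 had the widest gap, with 9.42% of its deserts in primed NADs against 43.8% of the rest; 12 of its 15 deserts were under 5%.

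Chromosomes also differed among themselves. The deserts of chromosomes 20, 21 and 22 were 88.8%, 87.6% and 98.3% primed, and 0 of their 18 deserts had a naive share above the primed share. The deserts of chromosomes 4, 5 and 13 were 16.7%, 14.4% and 9.42% primed, and the naive share was the higher one in 19 of 24, 22 of 26 and 13 of 15 deserts. On chromosome 7 the deserts split, with 7 of 12 under 5% primed and 4 of 12 at 95% or more. Over 21 chromosomes the desert share and the share of the rest had Spearman correlations of 0.931 in the naive list and 0.813 in the primed list, as a description.

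**Figure D3:**
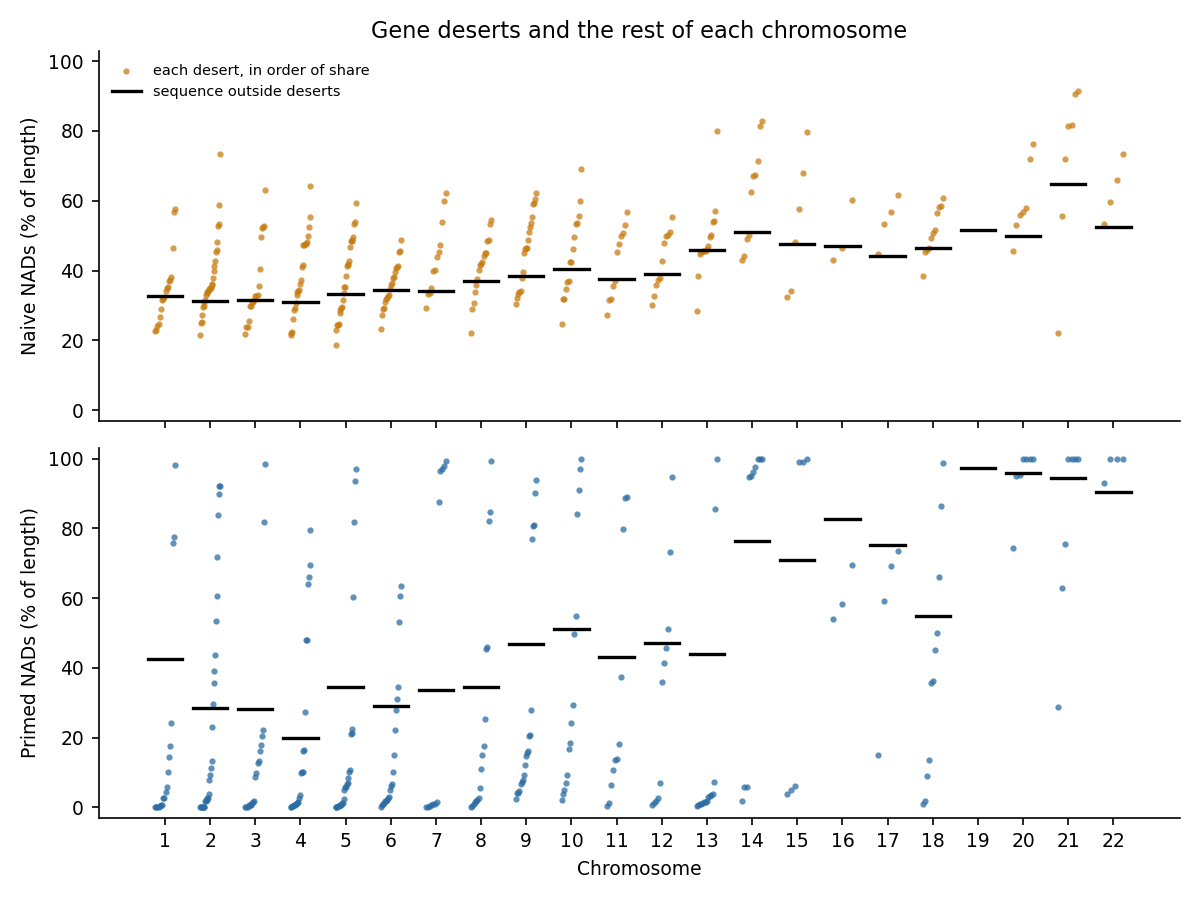
Share of each desert in naive (top) and primed (bottom) NADs, in % of its length, by chromosome; points are deserts in order of share and black bars give the sequence outside deserts. Primed points reach from 0% to 79.4% on chromosome 4 and from 0% to 63.6% on chromosome 6, and 12 of 15 lie under 5% on chromosome 13.

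The 2 lists differed in direction with the length of the gene-free interval. Intergenic intervals under 100 kb were 37.6% naive and 55.8% primed. Intervals of 500 kb to 1 Mb were 38.8% naive and 36.99% primed. The naive share was 41.7% in deserts of 1 to 1.5 Mb, 43.5% in those of 1.5 to 2 Mb and 46.9% in those of 2 Mb or more. The primed share was 35.0%, 27.3% and 34.8% in the same classes. The last class holds the 12 deserts that span a centromere, and without them its 76 deserts were 45.3% naive and 23.1% primed. Coding gene bodies were 38.5% naive and 45.4% primed. Windows of 1 Mb were also sorted by their number of coding genes, in classes of 0, 1 to 4, 5 to 9, 10 to 19, and 20 or more. The median naive shares were 45%, 38%, 34%, 35% and 39.5%, lowest in the middle of the range. The median primed shares were 18.5%, 15%, 33.5%, 59% and 86%. The naive share was the higher one in 58.3% of windows with 0 coding genes, 64.8% of those with 1 to 4 and 4.09% of those with 20 or more.

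Within deserts, sequence far from the bordering genes was more often in naive NADs. The naive share was 40.4% within 100 kb of the nearer bordering gene, 41.1% at 100 to 250 kb, 44.0% at 250 to 500 kb, 46.9% at 500 to 1000 kb and 47.5% beyond 1000 kb. The primed share was 31.7%, 32.6%, 32.4%, 30.5% and 41.2%. Without the deserts that hold a centromere, the innermost class was 48.6% naive and 23.9% primed, and the outermost 39.2% and 29.1%.

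**Figure D4:**
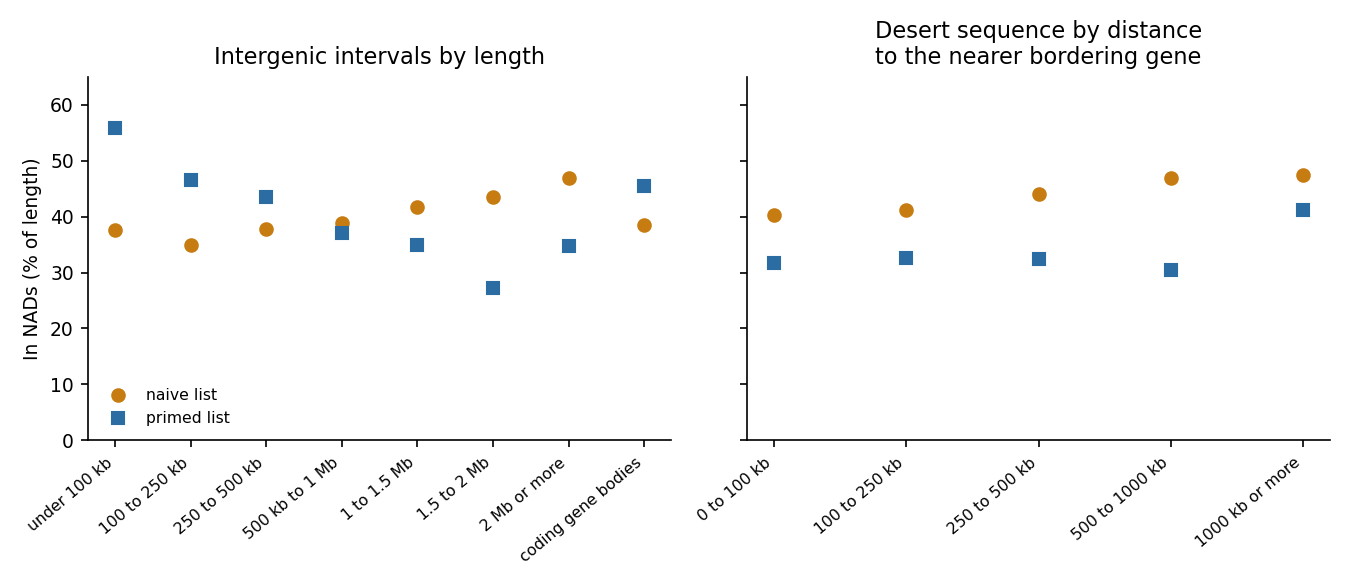
Share in naive (circles) and primed (squares) NADs, in % of length, of intergenic intervals by length with coding gene bodies at the right end (left panel), and of desert sequence by distance to the nearer bordering gene in kb (right panel). Naive shares lie above primed shares for intervals of 500 kb or more in the left panel, and in every distance class of the right panel.

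At the edge of a desert the shares changed by a few points. In the last 50 kb before a desert the primed share was 34.3%, and in the first 50 kb inside it was 32.2%; the naive shares were 42.5% and 40.2%. These steps of -2.13 and -2.27 points were larger than any other change between neighbouring strips of 50 kb on their lines, which reached 1.74 and 1.69 points. Around the 110 deserts under 5% primed the same strips were 3.06% primed outside and 2.06% inside, and the naive share was 35.4% outside and 31.2% inside. Around the 33 deserts at 95% or more they were 97.4% and 98.7% primed. In the 1 Mb on either side of a desert, the median primed share was 2.50% for the first set, with a highest value of 15.8%, and 97.0% for the second, with a lowest value of 78.0%. These sets were chosen on the primed share of the desert itself. Values outside the desert were not used in the choice but are not independent of it, because 1 primed region can run across an edge. Neighbouring deserts can also lie in the flanks.

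Compared with their own flanks of 1 Mb, 203 of 290 deserts had the higher naive share, with a median difference of 3.71 points. The primed share was higher in the desert for 121, lower for 155 and equal for the others, with a median of -0.44 points. The median primed share was 11.2% over deserts and 15.05% over their flanks. The primed gap of 13.2 points to the rest of the autosomes is a difference of pooled shares. No pooled share of the flanks was computed, so whether deserts differ from their own flanks by as much was not tested. Neighbouring deserts that lie close together were mostly alike in primed share. The 66 pairs under 1 Mb apart differed by a median of 2.27 points and at most 33.9. The 112 pairs at least 5 Mb apart differed by a median of 14.96 points, with 30 pairs at 50 points or more.

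**Figure D5:**
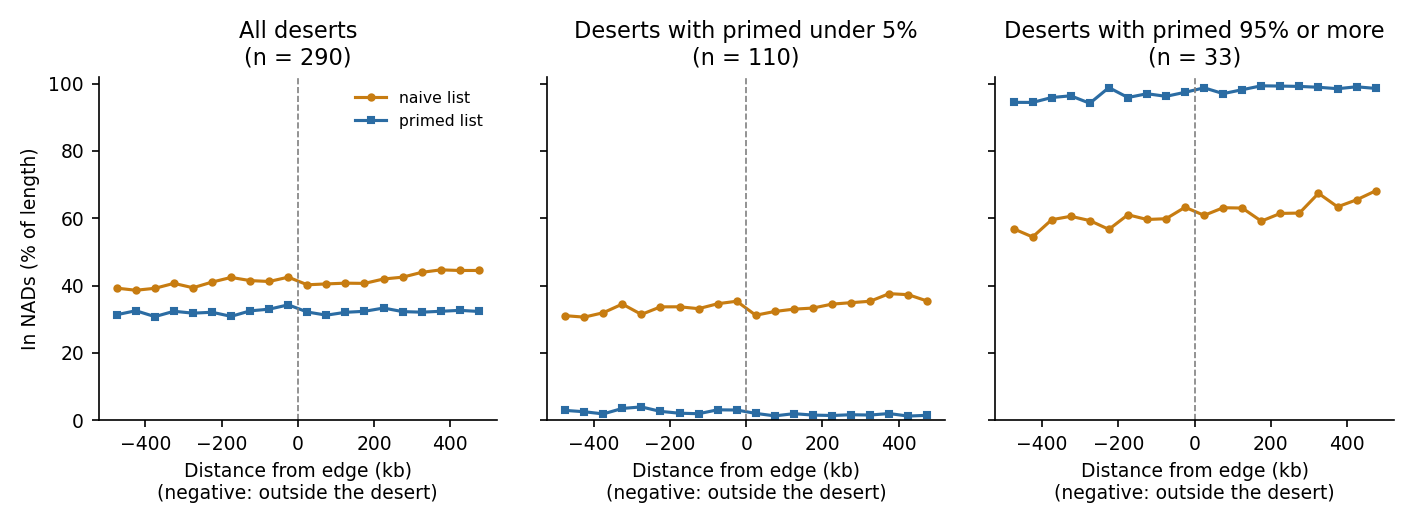
Share in naive and primed NADs, in % of length, in steps of 50 kb from 500 kb outside to 500 kb inside the edges of deserts (horizontal axis: distance in kb, negative outside; dashed line: the edge), for all 290 deserts, the 110 under 5% primed and the 33 at 95% or more. Over all deserts the primed line passes from 34.3% in the last strip outside to 32.2% in the first strip inside, and the naive line from 42.5% to 40.2%.

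Among the 10 longest deserts, 8 hold the centromere of their chromosome. These are ZNF716-LOC124901649 (chr7:57473560-63750530, 6.28 Mb), ANKRD30B-ROCK1, KCNJ18-WSB1, ZNF337-LOC124904970, OR4C12-OR4C46, ZNF37A-ZNF33B, EPHA3-PROS1 and ALG10-ALG10B. Their primed shares ran from 59.2% (KCNJ18-WSB1) to 94.6% (ALG10-ALG10B) and their naive shares from 44.7% to 60.01%, and the primed share was the higher one in each. Centromeric sequence is repetitive, and how reads were placed there is not given in the sources used here. The 12 deserts that hold a centromere were 52.9% naive and 80.2% primed together; the other 278 were 43.7% naive and 27.97% primed.

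The other members of the longest 10 lie on chromosome arms. PCDH7-ARAP2 (chr4:31146801-36005403, 4.86 Mb), beside the protocadherin gene PCDH7, was 52.5% naive and 10.1% primed. LOC105372073-PIK3C3 (chr18:37774689-41955233, 4.18 Mb), beside the class III phosphoinositide 3-kinase gene, was 49.3% naive and 36.1% primed. The longest lncRNA in the first, LINC02506, was 60.4% naive and 20.6% primed, and that in the second, MIR924HG, was 39.1% naive and 22.4% primed.

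The deserts with the largest excess of the primed over the naive share lay on 5 chromosomes. LZTS1-GFRA2 (chr8:20303964-21690397), beside the GDNF family receptor gene GFRA2, was 42.6% naive and 99.3% primed. SPDYE21-AUTS2 (chr7:67289006-69598474) was 40.2% naive and 96.5% primed, and GADD45G-DIRAS2 (chr9:89606556-90609831) was 37.9% naive and 90.0% primed. The other 3 were IGFBP3-TNS3, BTBD3-SPTLC3 and MKI67-MGMT, with 42.6% to 47.2% naive and 91.1% to 97.8% primed. Inside MKI67-MGMT, between the gene of the proliferation marker Ki-67 and a DNA repair methyltransferase gene, the longest lncRNA LINC01163 was 0% naive and 68.5% primed.

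The largest excess of the naive share was found in the 6 deserts that follow. SERPINB8-CDH7 (chr18:64019780-65750251) was 58.4% naive and 1.73% primed. On the same chromosome DSEL-TMX3 (chr18:67516721-68673687) was 56.5% naive and 0.864% primed. PCDH9-KLHL1 (chr13:67230337-69700596) was 54.2% naive and 0.405% primed, with 57 naive regions and a single primed bin. PCDH20-LOC112267897 (chr13:61415850-63746740) was 56.9% naive and 3.86% primed. HNF4G-ZFHX4 and CYLC2-SMC2 completed the 6, at 53.2% and 55.3% naive and 0.897% and 4.67% primed. These deserts were picked for their difference, so the values describe the extremes.

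The highest naive shares lay within long primed domains. They were 91.4% in NCAM2-MRPL39 (chr21:21543330-25585655) and 90.7% in TMPRSS15-NCAM2 (chr21:18485885-20998408), on either side of the neural cell adhesion gene NCAM2. USP25-CXADR (chr21:15880065-17513042), also among the highest 4, was 81.6% naive. Each of these 3 was 100% primed. Among the 17 deserts at 100% primed, LOC124902528-ANKRD30A was 68.98% naive and STXBP6-NOVA1 81.3% naive.

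The lowest naive shares came with low primed shares. SPRY1-ANKRD50 was 21.4% naive and 1.59% primed. SOX2-ATP11B (chr3:181714437-182793503) was 21.8% naive and 9.78% primed. Of the 23 deserts at 0% primed, the first 4 in chromosome order were NEGR1-LRRIQ3, BRINP3-RGS18, PTPRC-NR5A2 and ZP4-CHRM3, all on chromosome 1, with 31.5%, 38.1%, 23.03% and 26.7% naive.

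The short arm of chromosome 21 carried ribosomal DNA inside a desert. LOC102723475-LOC101927345 (chr21:7829633-9360008, 1.53 Mb) was 55.5% naive and 62.8% primed. It held 3 annotated 45S pre-ribosomal RNA genes, RNA45SN2, RNA45SN3 and RNA45SN1, with their 18S, 5.8S and 28S parts. All 12 of these ribosomal RNA genes lay 100% in NADs of both lists. Ribosomal DNA is repeated on several chromosomes, and how reads of its copies were placed is not given.

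The coding genes that border deserts were less often in primed NADs than coding genes at large, and were touched by naive NADs more often. There were 540 such genes, 40 of which border 2 deserts. Of these, 469 (86.9%) overlapped a naive NAD and 356 (65.9%) a primed NAD. Of all 18969 autosomal coding genes, 76.7% overlapped a naive and 81.3% a primed NAD. Bordering genes are longer, with a median body of 76.5 kb against 24.8 kb, and a longer body is more easily touched. With at least 50% of the body required, 190 bordering genes (35.2%) lay in naive and 179 (33.1%) in primed NADs, against 33.9% and 60.1% of all coding genes. Under that rule the naive share of bordering genes was close to that of genes at large, and the primed share remained lower. The median share of the body was 39.1% naive and 13.4% primed in bordering genes, and 35.1% naive and 72.5% primed in all coding genes.

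Genes of cell adhesion and axon guidance bordered deserts most often of the 4 lists compared: 66 of 236 (27.97%), against 2.85% of all coding genes. Of these 66, 64 (97.0%) overlapped a naive and 53 (80.3%) a primed NAD, against 90.3% and 85.2% of the whole list. Their median body is 571 kb, against 151 kb in the whole list, which any overlap easily reaches. With at least 50% of the body required, 32 (48.5%) lay in naive and 14 (21.2%) in primed NADs, against 35.2% and 40.7% of the whole list. Their 72 deserts had a median naive share of 45.7% and a median primed share of 6.93%, beside 42.5% and 11.2% over all deserts, and the naive share was the higher one in 55 (76.4%, against 68.3% of all deserts). PCDH7 was 60.9% naive and 2.35% primed over its body. EPHA3, an ephrin receptor gene at a desert that holds a centromere, was 88.7% naive and 100% primed, and NCAM2 was 86.5% naive and 100% primed. PCDH10, beside C4orf33-PCDH10, was 33.7% naive and 0% primed.

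Of the developmental regulators, 33 of 343 (9.62%) border a desert. Of these 33, 26 (78.8%) overlapped a naive and 23 (69.7%) a primed NAD, against 65.9% and 79.0% of the whole list. Their median body is 22.98 kb, against 10.45 kb in the whole list. With at least 50% of the body required, 36.4% lay in naive and 51.5% in primed NADs, against 35.3% and 60.9% of the whole list. Under that rule the naive share was close to that of the whole list, and the primed share remained lower. Their 35 deserts had medians of 35.7% naive and 11.3% primed, beside 42.5% and 11.2% over all deserts. Under 5% primed were 16 (45.7%, against 37.9% of all deserts), and at 95% or more 4 (11.4%, the same as over all deserts). Of the 6 such deserts of at least 2 Mb, 3 had primed shares over 90%. Among them VRK1-BCL11B (chr14:96881610-99169286), beside a factor gene of T cells and neurons, was 50.2% naive and 96.1% primed, and TMEM182-POU3F3 (chr2:102843839-104853275) was 52.8% naive and 92.04% primed. GATA3-CELF2 (chr10:8075199-10462549), beside the gene of the T helper and trophoblast factor GATA3, was 53.6% naive and 54.8% primed. ZEB2-ACVR2A (chr2:144520120-147844516), beside an epithelial-mesenchymal transition factor gene, was 34.7% naive and 1.80% primed, and its longest lncRNA TEX41 was 29.9% naive and 0% primed. ARRDC3-NR2F1 (chr5:91383318-93583221), beside a nuclear receptor gene of neural development, was 27.7% naive and 0.758% primed, and the body of NR2F1 was 0% in both.

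The other lists were smaller at deserts. Of ion channel and receptor genes, 24 of 251 (9.56%) border a desert. Of these, 22 (91.7%) overlapped a naive and 12 (50%) a primed NAD, against 82.9% and 76.5% of the whole list. They are longer, with a median body of 143 kb against 54.7 kb. With at least 50% of the body required, 25% lay in naive and 16.7% in primed NADs, against 29.1% and 52.2% of the whole list. Of their 24 deserts 12 (50%) were under 5% primed, against 37.9% of all deserts. KCNT2 was 32.5% naive and 0% primed over its body, GRIK2 48.2% and 0.930%, and KCNV1 0% in both. KCNJ18, at a desert that holds a centromere, was 100% in both. Of zinc finger and olfactory receptor genes only 11 of 886 (1.24%) border a desert. All 11 overlapped a naive and 9 (81.8%) a primed NAD, against 80.02% and 89.1% of the whole list. Their median body is 55.96 kb, against 12.42 kb in the whole list. With at least 50% of the body required, 63.6% lay in naive and 72.7% in primed NADs, against 58.2% and 81.3% of the whole list. ZNF716, ZNF337, OR4C46 and OR4C12 stand at deserts with a centromere, and all 4 were 100% primed over their bodies.

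Genes of the pluripotency network that border deserts were looked up after the values were seen. SOX2, a core pluripotency factor gene, was 100% in both lists beside its desert with 21.8% naive and 9.78% primed. ZFP42, a marker of pluripotent cells, was 0% naive and 100% primed, and DPPA4, a chromatin factor gene of early embryos, was 0% naive and 71.4% primed. Their deserts, FAT1-ZFP42 and DPPA4-NECTIN3, were 16.2% and 16.3% primed. KLF4 and CITED2 were 0% in both lists. NR5A2, a nuclear receptor gene, was 13.4% naive and 6.68% primed over its body, beside a desert at 0% primed.

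Promoters of bordering genes were also compared between deserts of low and high primed share. These sets were chosen on the primed share of the desert, which the promoters adjoin. The primed values of the promoters are thus not independent of that choice. Of the bordering genes, 429 had a promoter in the sequence table, with 667 promoter windows of a median GC content of 60% and 15 CG, close to the 62% and 17 CG of all coding genes in the table. Of these windows 43.03% lay in naive and 37.3% in primed NADs, against 41.7% and 64.3% of all coding promoters. At deserts under 5% primed, 31.1% of promoters lay in naive and 7.41% in primed NADs, while the deserts themselves were 36.3% and 1.43%. At deserts of 95% or more, 63.6% and 100% of promoters did, and the deserts were 67.0% and 98.9%.

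Noncoding genes fill part of the deserts. Deserts held 4641 noncoding genes and pseudogenes, and 288 of 290 held a lncRNA. Of the 4641, 3031 (65.3%) overlapped naive and 2202 (47.4%) primed NADs, against 52.3% and 61.6% of the 32466 elsewhere on the autosomes. The 2561 lncRNAs inside deserts overlapped naive NADs in 74.4% and primed NADs in 49.7% of cases, and those elsewhere in 60.7% and 66.5%. Desert lncRNAs are longer, with a median of 18.2 kb against 8.31 kb. For the 1700 pseudogenes, with a median of 0.709 kb, the figures were 50.6% and 39.4%, against 43.4% and 52.99% elsewhere. For the 109 microRNA genes they were 51.4% and 44.95%, against 35.9% and 61.0% elsewhere. So for lncRNAs, pseudogenes and microRNAs the naive share was the higher one inside deserts and the primed share the higher one elsewhere.

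Desert sequence was also divided by whether it was annotated. The 134 Mb of desert sequence in noncoding genes and pseudogenes was 42.6% naive and 29.1% primed, and the 412 Mb with no annotated gene was 45.3% naive and 34.5% primed. In the 273 deserts on chromosomes of the promoter table, 1561 bins of 10 kb held an annotated start, of which 43.9% were in naive and 37.5% in primed NADs, against 44.8% and 33.3% of the 49816 other bins. The 121 bins with a start of at least 10 CG differed more, with 48.8% in naive and 61.2% in primed NADs, against 44.8% and 33.4% of the bins without one. In deserts under 5% primed, 23 bins held such a start, and 17.4% of them were in naive and 4.35% in primed NADs, against 36.2% and 1.42% of the others. Of the 79 microRNA loci with a hairpin, 25 lay in NADs of both lists, 15 of the naive list alone and 11 of the primed list alone. Of the 26 among them in deserts under 5% primed, 16 lay in naive NADs and 6 in primed NADs. Those 6 are the miR-17-92 loci, which share 1 primed region and are also among the 16.

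Of the well-known lncRNAs looked for, PVT1 and ROCR lay inside deserts. PVT1, a transcript beside the MYC oncogene, was 31.1% naive and 26.1% primed over its body. ROCR, a regulator of SOX9 during cartilage formation, was 100% in both, while its desert KCNJ2-SOX9 was 56.7% naive and 14.9% primed and the body of SOX9, a cartilage and neural crest factor gene, was 0% in both. DANCR, MALAT1 and LINC-ROR lay outside deserts.

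Values on either side of the 1 Mb limit were mixed. Just inside it were BPNT2-FAM110B (1001 kb; 48.6% naive, 82.0% primed), SPRED2-MEIS1 (1003 kb; 34.9% and 60.6%) and GADD45G-DIRAS2 (1003 kb; 37.9% and 90.0%). Just outside it were DAOA-EFNB2 (998.7 kb; 34.9% and 0%), TSHZ3-ZNF507 (995 kb; 67.8% and 100%) and NDN-NPAP1 (988 kb; 87.9% and 100%).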

How the data were processed

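Per the submitters' processing notes, reads of the 12 libraries were processed against hg38 with BWA, SAMtools 1.10 and SICER. The roles and settings of these tools, the way 3 replicates became 1 list per state, and the depth of any library are not stated in the sources used here. Both deposited lists hold a chromosome, a start and an end per region, in base pairs with no other value; 8 naive and 12 primed regions do not lie on the 10 kb grid. The authors' regions were used as deposited.

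Gene positions came from a RefSeq table (GRCh38.p14); 679 genes listed on unplaced or alternate scaffolds, 153 of them coding, were left out. A share is covered base pairs over length. The rest of the autosomes leaves out deserts and stretches of at least 500 kb that no region touched. Flanks, windows, gene lists and distance classes were computed with Python 3.11.15, numpy 2.4.6, pandas 2.3.3 and scipy 1.17.1, and the interval functions were tested on simulated data. A gene was in a NAD when any base overlapped. A desert held a centromere when it spanned that chromosome's approximate centromere position, taken from general knowledge.

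Named deserts were the 10 longest, the 6 with the largest difference each way, the 4 highest and lowest in each list, those of at least 2 Mb beside a developmental regulator, and 3 on either side of 1 Mb; further genes are said to be chosen after their values were seen, and some deserts that these rules name are not reported here. Bordering genes named are up to 4 per list, at the longest deserts. MicroRNAs printed are up to 8 loci in NADs of both lists, in the longest deserts. The members and gene lists were chosen with earlier results of these data known. No test was made, because each state has 1 list.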

Additional observations from a re-analysis of the deposited data

How the results depend on the processing

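No paired analysis was possible because each state has 1 pooled list and the lists carry no replicate values. In this paragraph 5 values are given in the order naive share, primed share, naive minus primed, naive desert minus rest, primed desert minus rest (in % or points), where they left the 95% counting interval over bins. That interval takes bins as independent, which neighbouring bins are not. It is thus too narrow, and it serves only to choose which values are printed. With a minimum length of 500 kb the first 4 were 42.8, 34.3, 8.47 and 4.63; with 2 Mb the 5 were 46.9, 34.8, 12.1, 8.18 and -9.83. With no interval left out they were 41.4, 32.1, 9.30, 4.43 and -12.5, and with equal weight per chromosome 48.4, 43.5, 4.89, 6.999 and -9.99. With regions at most 50 kb apart merged, the first 3 were 83.2, 43.6 and 39.6 and the last -20.0. With regions of 1 bin left out they were 33.1, 28.9, 4.15, 7.32 and -11.8, and 50.7% of primed-covered desert sequence was also naive. Without the outer 100 kb, the naive share was 45.1 and its excess over the rest 6.87. Without the deserts that hold a centromere, chosen after seeing the data, they were 43.7, 27.97, 15.7, 5.46 and -18.4, and the overlap was 56.8%. When all annotated genes bounded the deserts, 15 remained, 12 of them with a centromere; they were 46.4 and 71.0, the difference turned to -24.6, and the excess over the rest was 6.98 and 27.7, with the naive share higher in 13.3% of deserts. With at least 50% of the body required, 190 bordering genes lay in naive and 179 in primed NADs. Leaving out each chromosome turned no direction: the 5 values ran from 43.8 to 45.3, 31.7 to 35.0, 9.78 to 12.5, 5.85 to 6.72 and -14.8 to -11.8, and the percent of deserts with the higher naive share from 66.7 to 70.0. Under the alternatives other than that of all annotated genes, this percent stayed within 1.5 times 68.3%. Depth is unknown, so whether the many single-bin regions reflect it was not tested.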
